A study of Homo sapiens with 8 samples.

Results

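The osteoblast lineage genes described here were 9 genes fixed by name: the transcription factors RUNX2, SP7, MSX2 and DLX5, the mineralization and matrix genes ALPL, SPP1, BGLAP and IBSP, and the hormone receptor gene PTH1R. All 9 were found among the 54174 gene symbols of the deposited expression table. They were measured by RNA sequencing in 143B, an established human osteosarcoma cell line, a tumour cell of bone origin grown in culture. Of 8 libraries, 4 came from cells that received a vector plasmid (control) and 4 from cells that received a plasmid labelled NELL1KO (knockout), all taken 48 h after transient transfection. The design text calls the 4 libraries of each group biological replicates. All groups share the one parental line, and the labels give neither the share of cells that took up the plasmid nor any check of editing.

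Osteoblasts arise from mesenchymal progenitors when RUNX2, a runt-domain factor that binds DNA with its partner CBFB, and then SP7 (osterix), a zinc-finger factor that acts after RUNX2, switch on the bone programme. MSX2 and DLX5 are homeodomain factors that act around RUNX2 in the early skeleton. Mature osteoblasts produce alkaline phosphatase (ALPL), osteopontin (SPP1), bone sialoprotein (IBSP) and osteocalcin (BGLAP), and respond to parathyroid hormone through PTH1R. NELL1, the gene targeted here, encodes a secreted protein known for promoting osteoblast differentiation and described as acting downstream of RUNX2.

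The promoter windows of 4 members are shown because they carry, or lack, the core sequence that runt-domain factors such as RUNX2 bind. Each window runs from 250 bases before to 50 bases after a start site and was taken from RefSeq on GRCh38.p14, plus strand. Capitals mark each ACCACA, the motif searched on both strands as ACCACA or TGTGGT, which do not overlap one another in these windows.
RUNX2, upstream start, chr6:45328080-45328379: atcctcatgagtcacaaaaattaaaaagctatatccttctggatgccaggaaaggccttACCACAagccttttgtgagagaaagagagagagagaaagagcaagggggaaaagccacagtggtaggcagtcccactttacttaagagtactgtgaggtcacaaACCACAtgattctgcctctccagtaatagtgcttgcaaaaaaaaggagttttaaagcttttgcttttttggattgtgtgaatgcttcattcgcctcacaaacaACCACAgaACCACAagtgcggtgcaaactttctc
SPP1, chr4:87975464-87975763: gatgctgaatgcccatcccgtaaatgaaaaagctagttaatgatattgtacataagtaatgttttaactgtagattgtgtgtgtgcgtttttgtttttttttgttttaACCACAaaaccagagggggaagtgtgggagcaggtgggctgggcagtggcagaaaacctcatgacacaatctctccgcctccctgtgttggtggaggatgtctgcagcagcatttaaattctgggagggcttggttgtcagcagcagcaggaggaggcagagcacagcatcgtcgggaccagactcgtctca
BGLAP, chr1:156241934-156242233: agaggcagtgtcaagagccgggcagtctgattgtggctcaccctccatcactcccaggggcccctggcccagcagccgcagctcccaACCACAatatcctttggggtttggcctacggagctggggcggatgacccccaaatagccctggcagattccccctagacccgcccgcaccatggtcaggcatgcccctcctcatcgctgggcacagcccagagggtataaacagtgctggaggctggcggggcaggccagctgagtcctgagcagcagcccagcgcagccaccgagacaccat
IBSP, chr4:87799304-87799603: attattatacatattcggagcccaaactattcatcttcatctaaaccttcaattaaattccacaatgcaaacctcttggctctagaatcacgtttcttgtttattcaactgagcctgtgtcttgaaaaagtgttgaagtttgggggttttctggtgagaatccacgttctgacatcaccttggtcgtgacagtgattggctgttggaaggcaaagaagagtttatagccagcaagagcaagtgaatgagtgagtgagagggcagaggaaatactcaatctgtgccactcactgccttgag

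The upstream RUNX2 window held 4 matches, at -191, -87, 17 and 25 from the start site. The SPP1 window held 1 at -142 and the BGLAP window held 1 at -163, whereas the IBSP window held 0. In all, 7 of the 9 members had an entry among these promoters, with 11 windows, of which 3 held a match. SP7 and DLX5 had no entry. Across 35116 promoter windows of 300 bases, 13.1% held at least 1 match and 1.3% held at least 2. A match is a string of letters and was not tested as a binding site. Of the 2 matrix genes that carry a match, SPP1 had a value in every library and BGLAP was blank in 5.

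Values in the table are on a log2 scale and were already brought to one distribution in all libraries, so they show where a gene stands relative to the rest of its own library. Whether they are scaled to gene length is not given in the sources used here, so levels are compared between libraries and not between genes. Read depth is unknown, and precision rests on the spread between libraries. The main test took genes measured in every library whose mean log2 value was 1 or more. Of the 9 members, 2 met both conditions (MSX2 and SPP1) and 4 had all 8 values but a mean under 1 (RUNX2, DLX5, ALPL and PTH1R). BGLAP had a value in 3 libraries, and SP7 and IBSP were blank in all 8, as were 37584 symbols of the table. A blank cell is a missing value here and does not show that a transcript is absent.

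Facts about the libraries bear on every value below. NELL1 itself was low in both groups (-6.97 to -4.53 in the controls, -6.96 to -4.82 in the 3 knockout libraries with a value, 1 blank) and did not check the labels. Knockout libraries 1 and 2 were close to each other (SD of the gene-wise difference 0.12), as were knockout libraries 3 and 4 (0.13), while differences between these pairs were 0.46 to 0.50. Among the controls, libraries 1 and 2 were the closest (0.10) and libraries 1 and 3 the furthest apart (0.29). Each result is therefore also given with each close knockout pair averaged, and the controls left single, wherever that ended a call. Control libraries 1 and 2, no further apart than those pairs, still counted singly there, so that fit does not allow for their closeness. Markers of other lineages were partly measured. Of 6 haematopoietic and osteoclast markers, PTPRC and CALCR were blank in every library, 4 had 8 values, and 1 of these, the lysosomal protein gene CD68, had a mean of 1 or more (5.72 to 5.90 in the controls, 5.54 to 5.88 in the knockouts). Of 6 adipocyte markers, ADIPOQ was blank and 4 had 8 values, with PPARG and LPL at a mean of 1 or more. Of 7 chondrocyte markers, COL10A1 was blank and 5 had 8 values, with SOX9 at a mean of 1 or more. Of 5 osteocyte, 5 muscle and 5 endothelial markers, 0 reached that mean, and SOST, DMP1, MEPE, MYOD1, MYOG and MYF5 were blank throughout. SP7 and IBSP, defining markers of the committed osteoblast, had no value in this bone tumour line. In bulk RNA, fewer cells that express a gene and less RNA per cell cannot be told apart.

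**Figure D1:**
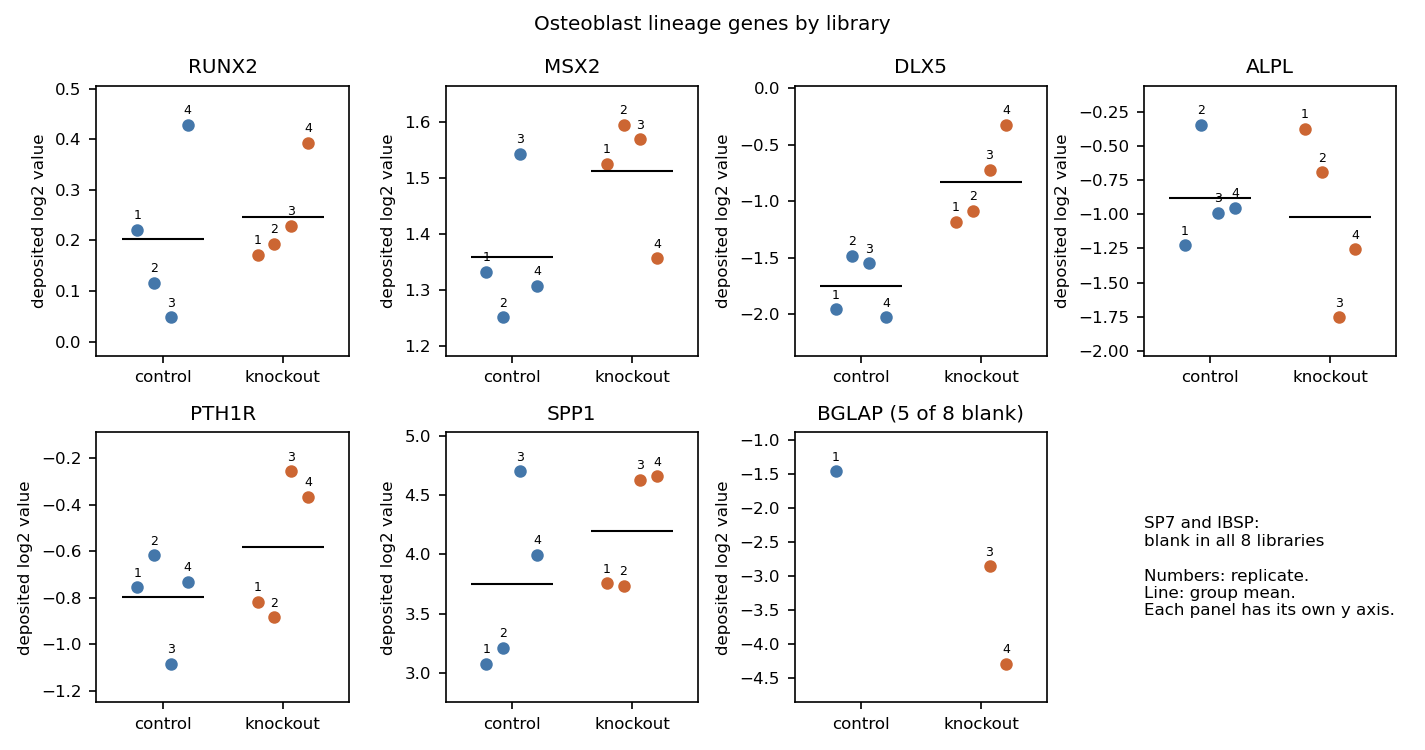
Deposited log2 value (y axis, separate for each panel) of 7 osteoblast lineage genes in the 4 control and 4 knockout libraries; points are libraries with their replicate number and lines are group means. DLX5 is higher in all 4 knockout libraries (-1.18 to -0.32) than in any control (-2.03 to -1.48), while the groups of the other 5 genes with 8 values overlap.

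The members were first compared as a set. In limma's fit over the 9016 genes tested, 0 of the 2 members that entered it were called at a Benjamini-Hochberg adjusted p under 0.05, and 0 had an unadjusted p under 0.05. In that fit 13.1% of all tested genes were called, and with the replicate block, where again 0 of the 2 were called, 10.2%. When the mean filter was dropped and limma was fitted to all 13943 genes with 8 values, 1 of 6 members was called, DLX5, against 8.3% of all genes (4.65% higher in the knockouts). With the replicate number as a block in that fit, 0 of the 6 were called (3.02% of all genes), and 2 of them, DLX5 and SPP1, had an unadjusted p under 0.05.

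RUNX2, at 6:45328330-45551082 on the plus strand of GRCh38, encodes the runt-domain factor that commits cells to the osteoblast lineage. In control libraries 1 to 4 it measured 0.22, 0.12, 0.05 and 0.43 on the log2 scale, and it measured 0.17, 0.19, 0.23 and 0.39 in knockout libraries 1 to 4. The groups overlapped, with library 4 the highest in both and control libraries 2 and 3 below every knockout. The difference of 0.04 (control 0.20 ± 0.17, knockout 0.25 ± 0.10; SD, n = 4 each) was smaller than the replicate spread (p = 0.629 by exact two-sided permutation; no 4-against-4 comparison can go below 0.0286). The 95% interval from limma without the mean filter was -0.19 to 0.28. A p above the threshold does not show that the groups were equal. RUNX2 overlaps SUPT3H and RUNX2-AS1 on the opposite strand, and whether reads were counted by strand is not given in the sources used here.

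SP7 (12:53326575-53344793, minus strand) encodes osterix, the factor that follows RUNX2 in osteoblast commitment. It was blank in all 4 control and all 4 knockout libraries, so no comparison was possible.

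MSX2 (5:174724582-174730896, plus strand) encodes a homeodomain repressor of the early skeleton and skull. The controls had log2 values of 1.33, 1.25, 1.54 and 1.31, and the knockouts 1.53, 1.60, 1.57 and 1.36. Knockout libraries 2 and 3 lay above every control, and control library 3 lay above knockout libraries 1 and 4, so the groups overlapped. The difference was 0.15 ± 0.09 (SE; 95% interval -0.05 to 0.35; control 1.36 ± 0.13, knockout 1.51 ± 0.11, SD, n = 4 each). It did not pass the limma test (adjusted p = 0.279) or, with the replicate block, the same test (adjusted p = 0.263). The knockout library was the higher one in 4 of 4 same-numbered pairs. Replicates 1 and 2 differed by 0.27 and replicates 3 and 4 by 0.04.

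DLX5 (7:97020396-97024831, minus strand) encodes a homeodomain activator that responds to BMP signals and acts upstream of SP7 and osteocalcin. DLX5 was at -1.96, -1.48, -1.55 and -2.03 (log2) in the controls and at -1.18, -1.08, -0.72 and -0.32 in the knockouts. All 4 knockout libraries lay above all 4 controls, and knockout libraries 3 and 4 were higher than 1 and 2. The mean rose from -1.75 ± 0.28 to -0.83 ± 0.39 (SD, n = 4 each), a difference of 0.93, or 1.90-fold (p = 0.0286 by exact two-sided permutation, the lowest that 4 against 4 allows). Groups without overlap were common: 15.8% of the 4927 genes with 8 values and a mean under 1 showed them, in either direction. Over all genes with 8 values the share was 20.4% (11.3% higher in the knockouts), against 1 of the 6 such members. Limma over all genes with 8 values gave an SE of 0.22 and an adjusted p of 0.0418. With the replicate block the limma adjusted p was 0.0932, and with each close pair of knockout libraries averaged it was 0.164, so the call did not hold in either fit. Leaving out any one of control libraries 1, 2 and 4 or knockout libraries 2, 3 and 4 also took limma's adjusted p past 0.05, with a highest value of 0.119 and a difference between 0.76 and 1.02. Replicates 1 and 2 rose by 0.59 and replicates 3 and 4 by 1.27. Adding 1 to the linear values before the logarithm gave a difference of 0.28, and DLX5 was not called by limma in that fit. That step keeps the order of the libraries, so it could not make the groups overlap.

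DLX6 (7:97005553-97011040, plus strand) is the neighbour and close relative of DLX5, and the 2 genes form a convergent pair that shares enhancers. It was on the list of other skeletal regulators, and is described here because of the DLX5 values. The controls lay at -2.20, -1.56, -1.18 and -1.70 (log2), and the knockouts at -0.85, -0.90, -0.41 and -0.11. As for DLX5, every knockout library lay above every control, with libraries 3 and 4 the highest. The difference was 1.09, or 2.13-fold (p = 0.0286 by exact two-sided permutation, the lowest that 4 against 4 allows). Limma without the mean filter gave 1.09 ± 0.25 (SE; adjusted p = 0.0402), and 0.0573 with the replicate block and 0.188 with averaged pairs as adjusted p. It stayed under 0.05 in 1 of the 8 fits that left out 1 library. DLX6-AS1, the antisense transcript that overlaps DLX6, was blank in all 8 libraries.

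**Figure D2:**
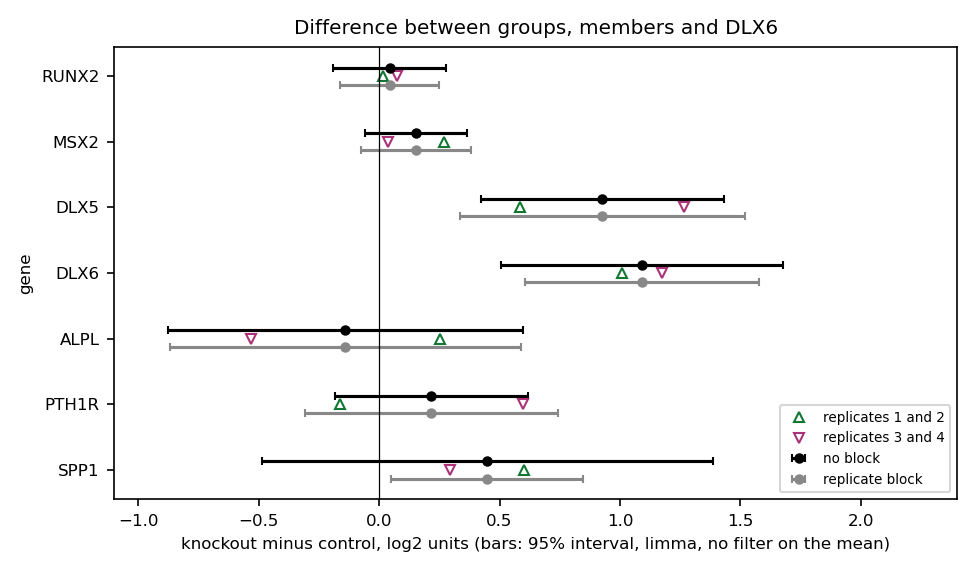
Knockout minus control in log2 units (x axis) for the 6 members with 8 values and DLX6 (y axis); bars are 95% limma intervals without the mean filter, without and with the replicate block, and triangles are the differences within replicates 1 and 2 and within replicates 3 and 4. DLX5 and DLX6 lie at 0.93 and 1.09, and the triangles of ALPL and PTH1R fall on opposite sides of 0.

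ALPL (1:21508984-21578410, plus strand) encodes tissue-nonspecific alkaline phosphatase, which removes pyrophosphate, an inhibitor of mineral growth. On the log2 scale it was -1.23, -0.34, -0.99 and -0.95 in the controls and -0.37, -0.69, -1.75 and -1.25 in the knockouts. Knockout libraries 3 and 4 were the lowest of the 8, and knockout library 1 lay beside the highest control. The difference of -0.14 (control -0.88 ± 0.38, knockout -1.02 ± 0.61; SD, n = 4 each) was within the spread (p = 0.686 by exact two-sided permutation; limma 95% interval without the mean filter -0.88 to 0.60). Replicates 1 and 2 gave 0.25 and replicates 3 and 4 gave -0.53, so its sign depended on the libraries used. It was also above 0 without control library 2 (0.04) or without knockout library 3 (0.10).

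SPP1 (4:87975714-87983411, plus strand) encodes osteopontin, a phosphorylated matrix protein that binds mineral and integrins. Log2 values of 3.08, 3.21, 4.70 and 4.00 were found in the controls and of 3.76, 3.74, 4.63 and 4.66 in the knockouts. Libraries 3 and 4 were higher than libraries 1 and 2 in both groups, by 1.21 in the controls and by 0.90 in the knockouts, and the highest value of all was control library 3. That split was larger than the difference between groups, 0.45 ± 0.38 (SE; 95% interval -0.43 to 1.32; control 3.75 ± 0.76, knockout 4.20 ± 0.52, SD, n = 4 each), which did not pass the limma test (adjusted p = 0.477). With the replicate block the SE was 0.14 and the 95% interval 0.10 to 0.79, and the limma adjusted p was 0.0976. A term for replicates 1-2 against 3-4 gave a limma adjusted p of 0.0544. The knockout library was higher in 3 of 4 same-numbered pairs. Without control library 3 the difference was 0.77 (limma adjusted p = 0.161), and without control library 1 it was 0.22 (limma adjusted p = 0.772).

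Within replicates 1 and 2 alone, both MSX2 and SPP1 passed the limma test, at 0.27 (adjusted p = 0.00658) and 0.60 (adjusted p = 4.26e-04). That fit called 59.7% of all tested genes, its residual spread coming from the close pairs. Within replicates 3 and 4, which called 33.1% of tested genes, neither passed (SPP1 0.29, limma adjusted p = 0.286; MSX2 0.04, adjusted p = 0.825).

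The tested genes whose log2 values followed SPP1 most closely over the 8 libraries were MLLT1 (Pearson's r = 0.996), SSU72 (r = 0.994) and AP3D1 (r = 0.994). MLLT1 was 1.18, 1.17, 2.38 and 1.77 in the controls and 1.56, 1.63, 2.25 and 2.29 in the knockouts, with the same high libraries as SPP1. None of these 3 was called between groups (limma adjusted p 0.426 to 0.539). For MSX2 the closest were NIPA2, ATAD3B and SLC35D1 (r = 0.947, 0.945 and 0.945). All are the best of 9015 comparisons over 8 libraries that hold the close pairs described above, and are given as a description.

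**Figure D3:**
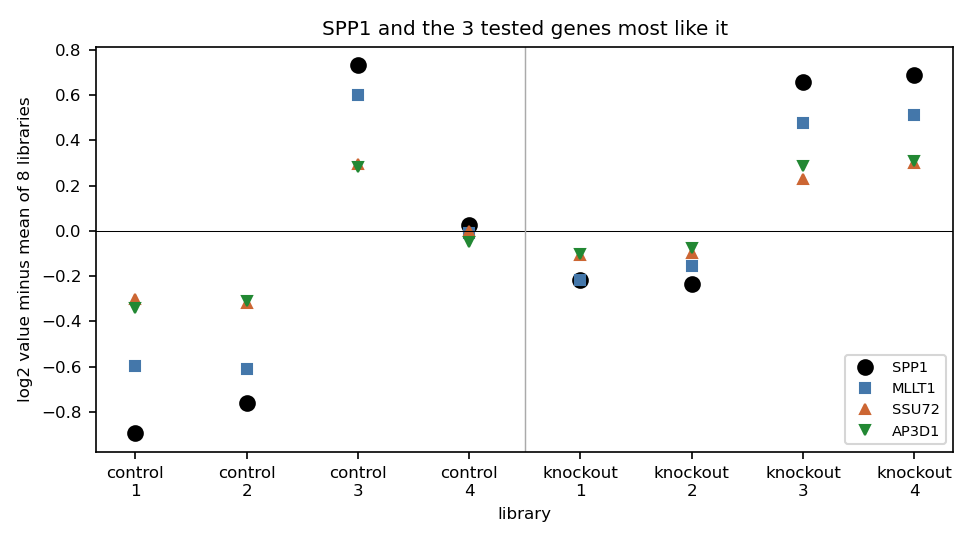
Log2 value minus the gene's mean over the 8 libraries (y axis) for SPP1 and the 3 tested genes with the highest Pearson's r to it, by library (x axis). Control library 3 and knockout libraries 3 and 4 are high and control libraries 1 and 2 are low for all 4 genes.

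BGLAP (1:156242184-156243317, plus strand) encodes osteocalcin, a late osteoblast product that binds calcium. It had a value of -1.46 in control library 1, -2.85 in knockout library 3 and -4.29 in knockout library 4, and was blank in the other 5 libraries. With 1 control value there is no spread within that group, and an exact permutation over 3 splits cannot pass 0.05 (two-sided p = 0.667). On the opposite strand BGLAP overlaps PAQR6. On the same strand it overlaps PMF1-BGLAP, a read-through transcript that joins it to the upstream gene PMF1. The counting could therefore split reads between the BGLAP and PMF1-BGLAP entries. PMF1-BGLAP was -0.92, 0.33, 0.81 and 0.09 in the controls and 0.86, 0.05, 1.08 and 0.74 in the knockouts. The groups overlapped (difference 0.61; p = 0.257 by exact two-sided permutation).

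IBSP (4:87799554-87812435, plus strand) encodes bone sialoprotein, which nucleates mineral and, like osteopontin, belongs to a family of small acidic matrix glycoproteins encoded together on that chromosome. It was blank in all 8 libraries, as were DMP1 and MEPE of the same family.

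PTH1R (3:46877721-46903799, plus strand) encodes the receptor for parathyroid hormone and for its relative PTHrP. Across the controls it was -0.76, -0.62, -1.08 and -0.73 (log2), and across the knockouts -0.82, -0.88, -0.26 and -0.37. Knockout libraries 3 and 4 were above every other library, and knockout libraries 1 and 2 lay inside the control range. The difference was 0.22 (control -0.80 ± 0.20, knockout -0.58 ± 0.32, SD, n = 4 each), above the control SD and below the knockout SD. Exact two-sided permutation gave p = 0.314. The limma 95% interval without the mean filter was -0.18 to 0.62. Replicates 1 and 2 gave -0.16 and replicates 3 and 4 gave 0.60. PTH1R overlaps MYL3 on the opposite strand.

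PTHLH, the gene of PTHrP and so of a ligand of PTH1R, had a mean under 1 and was singled out after its values were seen. It was 0.95, 0.89, 1.37 and 1.12 in the controls and -0.34, -0.03, 0.48 and 0.45 in the knockouts, lower in every knockout library than in any control, as 15.8% of genes with a mean under 1 were separated in one direction or the other. The difference was -0.95 ± 0.20 (SE; limma without the mean filter, adjusted p = 0.0330, and 0.0395 with the replicate block). With averaged knockout pairs the limma adjusted p was 0.142, and it stayed under 0.05 in 2 of the 8 fits that left out 1 library. PTH itself was blank in all 8 libraries.

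The remaining bone genes were read from 5 lists, written from general knowledge with earlier results of these data known. Shares called in them are therefore a description. The lists held 150 genes in all, of which 73 were tested. Of these, 14 were called (19.2%, against 13.1% of all tested genes), 2 higher and 12 lower in the knockout libraries (7.02% and 6.1% of all tested genes). The median log2 fold change was -0.19 over the 73 genes and 0.01 over all tested genes. With each close pair of knockout libraries averaged, 2 of the 14 were called, JUNB (limma adjusted p = 0.0270) and ITGA5 (0.0387), and the limma adjusted p of the other 12 lay between 0.0512 and 0.168. Without control library 1, 2 or 4, limma called 8, 8 and 7 of the 14. MSX1, JUNB, SERPINH1, SLC20A1, ADCY6, ITGAV and ITGA5 passed whichever single library was left out, and the other 7 did not.

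Among 37 other transcription regulators of bone, 24 were tested and 3 were called, all 3 of them lower. That is 12.5%, against 13.1% of all tested genes. MSX1, the homeodomain relative of MSX2, was 5.43, 5.43, 5.59 and 5.53 in the controls and 5.00, 5.03, 4.80 and 4.70 in the knockouts. It fell by 0.61 (SE 0.09, limma adjusted p = 0.00611), while MSX2 was not called. Every knockout library lay below every control, and 22.9% of all tested genes had groups without overlap, in either direction. JUNB, an AP-1 subunit, was 4.35, 4.40, 4.21 and 4.39 in the controls and 3.62, 3.63, 3.61 and 3.65 in the knockouts, a fall in all 4 same-numbered pairs (-0.71 ± 0.07, SE; limma adjusted p = 0.00117). BHLHE40, a basic helix-loop-helix repressor, fell by 0.86 (limma adjusted p = 0.0204). CBFB, RUNX1 and ATF4 were not called, of which RUNX1 was under the mean filter. FOXO1, also under it, was higher in every knockout library than in any control, and was named after its values were seen. The difference was 0.73 (limma without the mean filter, adjusted p = 0.0170). Such separation, in either direction, was seen in 15.8% of genes with 8 values and a mean under 1.

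Of 35 genes of the bone matrix and of osteocytes, 13 were tested, 1 rose, 1 fell and 11 were not called. The share called was 15.4%, against 13.1% of all tested genes. SPARC (osteonectin, a collagen- and mineral-binding protein) was 5.27, 5.23, 5.94 and 5.53 in the controls and 6.10, 6.06, 6.15 and 6.15 in the knockouts, a rise of 0.62 (SE 0.15; limma adjusted p = 0.0294). Like SPP1 it was highest among the controls in library 3, and 7 of the 8 fits that left out 1 library ended its call. SERPINH1, the collagen chaperone HSP47, fell by 0.40 (limma adjusted p = 0.00696). Under the mean filter or partly blank were 13 genes, among them COL1A1 and COL1A2, the chains of bone collagen. COL1A1 was -0.33, -0.30, 0.65 and 0.24 in the controls and -1.45, -0.87, 0.80 and 0.90 in the knockouts, again higher in libraries 3 and 4 of both groups. Blank throughout were 9 genes, among them SOST, DMP1, MEPE and IFITM5.

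Of 31 genes on the list for phosphate and mineral handling, 14 were tested and 3 fell, with 0 called higher. The share called was 21.4%, against 13.1% of all tested genes. NT5E (CD73), which releases adenosine and phosphate from AMP, was 4.77, 4.81, 5.18 and 5.03 in the controls and 4.35, 4.37, 3.81 and 3.70 in the knockouts. It fell by 0.89 (SE 0.18; limma adjusted p = 0.0154), more in libraries 3 and 4. SLC20A1 (PiT-1), a sodium-phosphate cotransporter, was 7.77, 7.78, 8.00 and 7.87 in the controls and 7.28, 7.31, 7.27 and 7.33 in the knockouts, a fall of 0.56 in log2 units (SE 0.07; limma adjusted p = 0.00316). The hormone gene STC1 fell by 0.25 (limma adjusted p = 0.0330; 0.0798 with the replicate block). ENPP1 and ANKH, which supply the pyrophosphate that ALPL removes, were tested and not called. ENPP1 was lower in all 4 same-numbered pairs (-0.46), and with the replicate block it was called (limma adjusted p = 0.0343, against 0.317 without). Under the mean filter, ABCC6 was lower (-0.76; limma without the mean filter, adjusted p = 0.0258) and TRPV4 higher (0.60; adjusted p = 0.0202; 0.0545 with the replicate block), both named after their values were seen. With averaged knockout pairs neither they nor FOXO1 passed (limma adjusted p 0.140 to 0.154). Of the 8 fits that left out 1 library, ABCC6 passed in 2, TRPV4 in 5 and FOXO1 in 6, and with 1 added to the linear values the ABCC6 difference was -0.06.

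Of 37 hormone receptor and osteoclast-coupling genes, 16 were tested, 1 rose and 1 fell, or 12.5% against 13.1% of all tested genes. ADCY6, an adenylyl cyclase of the kind that PTH1R signals through, rose by 0.43 (SE 0.07; limma adjusted p = 0.00815). IL6ST (gp130), the shared receptor of the interleukin-6 family, fell by 0.37 (limma adjusted p = 0.0293). TNFSF11, the osteoclast-inducing ligand RANKL, was blank in all 8 libraries.

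Of 11 receptors for osteopontin and bone sialoprotein, 7 were tested, 4 fell and 0 rose, or 57.1% against 13.1% of all tested genes. With each close pair of knockout libraries averaged, ITGA5 alone of these 4 was called. ITGAV, the alpha chain of the vitronectin-type integrins, was 4.72, 4.63, 4.20 and 4.45 in the controls and 3.73, 3.85, 3.99 and 3.85 in the knockouts, a fall of 0.65 in log2 units (SE 0.12; limma adjusted p = 0.0113). ITGB5, one of its partners, was 5.39, 5.37, 5.44 and 5.39 in the controls and 4.08, 4.25, 4.97 and 4.95 in the knockouts (-0.83 ± 0.20, SE; limma adjusted p = 0.0306). ITGA5 was 5.21, 5.16, 5.29 and 5.20 in the controls and 4.40, 4.51, 4.70 and 4.69 in the knockouts (-0.64 ± 0.08, SE; limma adjusted p = 0.00409). All knockout libraries lay below all controls for each of these 3 genes. Groups without overlap, in either direction, were seen in 22.9% of all tested genes. ITGB1, the common beta chain and the fourth called, fell by 0.34 (limma adjusted p = 0.0171). ITGB3, ITGA4 and CD44 were not called, at -0.19, 0.05 and -0.10.

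**Figure D4:**
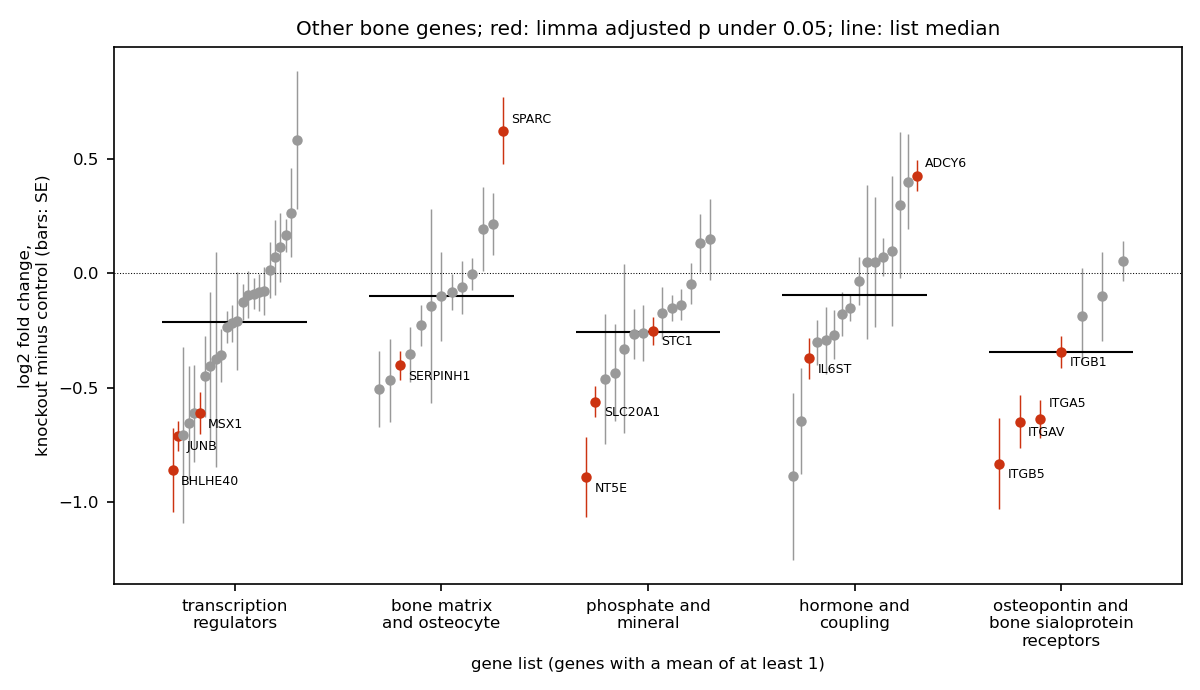
Log2 fold change, knockout minus control (y axis; bars are SE), of every tested gene in 5 lists of other bone genes (x axis), with called genes in red and named and the list median as a line. The 2 called genes above 0 are SPARC and ADCY6, and the other 12 lie below 0.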

How the data were processed

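Per the labels' protocols, TRIzol-extracted RNA of 143B cells went into a stranded total-RNA library kit. The submitters' processing notes name bcl2fastq, Partek 7.0 and the build GRCh38, without saying what each was used for. The values deposited by the authors are on a log2 scale (base inferred from the range), with 1 row per gene symbol; the linear unit, annotation and rule for blank cells are not given in the sources used here. All 8 libraries share one mean (1.07), median (1.77), lowest (-10.5) and highest value (12.1), which means that the authors' deposited log2 scale was quantile normalized beforehand and hides any change common to most genes. No per-sample column was left out. Columns were matched to samples through the description labels and groups were taken from the titles.

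The comparison, knockout minus control, used limma 3.58.1 (R 4.3.3; eBayes, no trend, no covariate) over the 9016 genes with 8 values and a mean of at least 1, with Benjamini-Hochberg adjustment over all of them and a call at an adjusted p under 0.05. Members under that mean were compared by exact two-sided permutation of the difference in means over 70 splits, and no p was adjusted over the members alone. The fits were tested on simulated data with independent noise in each library. Those data did not hold the close pairs, so that test does not bear on calls that depend on them. Same-numbered libraries deviated together (correlation across genes 0.24, 0.27, 0.29 and 0.20 for replicates 1 to 4). The replicate number was therefore taken as a pairing and a blocked fit was run. The sample titles number the replicates but state no pairing, and control library 1 deviated most like a knockout library of another number. Results of the blocked fit rest on this assumed pairing. Other alternatives were another filter, a pseudocount of 1, a variance trend, centring on medians, repeated quantile normalization, averaging or splitting of the close libraries, and leaving out each library. Combinations of these with no filter, mainly for genes with a mean under 1, were added after seeing the data.

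The members and lists were chosen with earlier results of these data known, and 2 genes of the lists are not reported here. Named genes were all members, NELL1, the 3 closest genes of each tested member and, per list, up to 3 called genes in each direction with the largest change. Other genes of the lists were named outside this rule, as relatives of the members or with their values known. Gene positions and promoters are from RefSeq (GRCh38.p14), and overlapping genes from GENCODE 29.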

Additional observations from a re-analysis of the deposited data

Results flagged for a closer look

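In 56 groups of 4 libraries checked, one per gene and condition, 2 held a library far from the other 3 by Dixon's criterion, where chance marks about 1 in 20. ADCY6 was 1.61 in control library 3 and 1.52 to 1.53 in the other controls. MATN3, a cartilage matrix gene, was -1.185 in knockout library 4 and -0.88 to -0.86 in the other knockout libraries.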

How the results depend on the processing

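Of MSX2 and SPP1, the 2 members tested with the mean filter, 0 were called when any 1 library was left out, and 2 in replicates 1-2 only. Without that filter 6 members were tested and 1, DLX5, was called, beside 1157 of all 13943 genes. Still without the filter, DLX5 was also the 1 member called in these alternatives, with the number of all genes called in brackets. They were median centring (1202), a variance trend (1368), a term for replicates 1-2 against 3-4 (2559) and replicates 3-4 only (2258). The others were leaving out control library 3 (1413) or knockout library 1 (694). In replicates 1-2 only, 2 members (MSX2 and SPP1) were called, beside 4873 of the 13943 genes. Under the other alternatives 0 members were called. Differences that changed sign were RUNX2 without control library 3 (-0.0087) or knockout library 4 (-0.0057), ALPL in replicates 1-2 (0.25) and without control library 2 (0.037) or knockout library 3 (0.10), and PTH1R in replicates 1-2 (-0.16). BGLAP went from -2.11 to 1.20 with blanks set to the lowest value. With the mean filter, 1183 of all tested genes were called. That count became 729 with a mean of at least 3, 108 with averaged knockout pairs and 2274 with a term for replicates 1-2 against 3-4. It was 5380 in replicates 1-2, 2987 in replicates 3-4 and 272 at an adjusted p under 0.01. When 1 library was left out it was 391 to 1353. List genes called (14) became 2 with averaged pairs, 27 with the term, 50 in replicates 1-2, 33 in replicates 3-4, 6 at an adjusted p under 0.01, and 7 to 15 when 1 library was left out; leaving out control library 1, 2 or 4 gave 8, 8 and 7. With the replicate block 924 genes and 15 list genes were called, with STC1 lost and ENPP1 and SERPINF1 (limma adjusted p = 0.0392) gained, and beside the values given with the results it changed no other call among the named genes. With the block and no mean filter together, MSX1, BHLHE40, SPARC, SERPINH1, NT5E, ADCY6, IL6ST, ITGAV, ITGB1 and ITGB5 were also not called (limma adjusted p 0.0613 to 0.0933). Neither were ENPP1 (limma adjusted p = 0.0734) and SERPINF1 (limma adjusted p = 0.0825) in that fit. The cause of these shifts was not tested. Of the 4 genes called in the receptor list, ITGB5 was lost without the mean filter (limma adjusted p = 0.0512). No depth is known, so low genes such as DLX5 and BGLAP carry a counting error that cannot be given.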

Other observations

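Markers of neighbouring mesenchymal lineages were also measured. SOX9, the master factor of cartilage, was 4.12 to 4.22 in the controls and 3.03 to 4.56 in the knockouts, wider than the controls on both sides. PPARG, the adipocyte factor, was 3.09 to 3.27 in the controls and 3.16 to 3.43 in the knockouts. MATN3 was lower in every knockout library than in any control, as 15.8% of genes with a mean under 1 were separated in one direction or the other. The difference was -0.58 (limma without the mean filter, adjusted p = 0.0238, and 0.140 with averaged pairs). It passed in 4 of the 8 fits that left out 1 library.

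FABP4, a fatty-acid-binding protein of adipocytes and endothelium, was -1.18, -1.64, -0.36 and -0.88 in control libraries 1 to 4 and -0.40, -0.27, 2.39 and 2.46 in knockout libraries 1 to 4. Knockout libraries 3 and 4 stood above all others, and the difference of 2.06 did not pass the test (limma without the mean filter, adjusted p = 0.125; p = 0.0571 by exact two-sided permutation).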
